A study of Homo sapiens with 8 samples.

Results

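The C/D box small nucleolar RNAs (snoRNAs) described here were the 68 genes, of 58302 in the deposited count table, chosen by their GENCODE 44 symbol and by their level. The symbol had to be SNORD followed by a digit, without the SNORD113 and SNORD114 clusters, the SNORD3 copies, SNORD13 and SNORD118, and the raw counts summed over the 8 libraries had to reach 80. Of 258 C/D box rows before that minimum, 35 had between 1 and 79 counts and 155 had none. The summed counts chose the members, so their levels are given as a description. The count just inside the minimum was 86 for SNORD65B, followed by 104 for SNORD48 and 146 for SNORD73B. Just outside it were SNORD116-6 with 66 counts, SNORD30 with 65 and SNORD7 with 61.

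Small-RNA sequencing was performed on total RNA of A549, an epithelial cell line from a human lung adenocarcinoma, in a protocol modified to keep longer RNAs. The 4 libraries labelled siCTRL came from cells transfected with a scramble siRNA, and the 4 labelled siAPEX1 from cells transfected with an siRNA against APEX1, the gene of the base excision repair endonuclease APE1. Transfection was transient, and all 8 libraries share the line and the transfection itself. The study was designed to ask which RNAs differ once APEX1 is silenced, and it showed the silencing by Western blot of the APE1 protein. In the count table, however, the APEX1 row was higher under the siAPEX1 label, as given below.

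C/D box snoRNAs are short nucleolar RNAs named after their paired sequence motifs, the C box TGATGA and the D box CTGA. They assemble with fibrillarin, NOP56, NOP58 and SNU13 into a ribonucleoprotein in which a guide element upstream of a D box pairs with ribosomal or spliceosomal RNA, and fibrillarin methylates the ribose of the paired base that faces the fifth guide base before the box. Most human C/D box snoRNAs are cut from the introns of host genes, many of which make ribosomal proteins or translation and nucleolar factors. The SNORD116 copies lie in a tandem array within the imprinted SNHG14 transcript, and no rRNA target is established for them.

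The sequences of the members on which the results turn were taken from the GENCODE 44 transcript sequences, and those of the rRNAs from the GRCh38 genome. The first set shows guide elements, with capitals marking the longest run of bases complementary to mature 18S, 28S or 5.8S rRNA or to U6 small nuclear RNA that ended within 3 bases of a CTGA. SNORD104 was the most abundant member, SNORD92 had the largest rise, SNORD14A and SNORD14E are copies of U14, the pairs SNORD11 with SNORD11B and SNORD105 with SNORD105B share a site in 18S rRNA, and SNORD67 matched U6.
SNORD104: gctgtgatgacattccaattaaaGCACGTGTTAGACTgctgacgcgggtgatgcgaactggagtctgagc
SNORD92: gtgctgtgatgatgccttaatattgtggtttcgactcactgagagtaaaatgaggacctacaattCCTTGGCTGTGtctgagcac
SNORD14A: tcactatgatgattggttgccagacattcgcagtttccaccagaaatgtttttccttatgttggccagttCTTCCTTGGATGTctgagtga
SNORD14E: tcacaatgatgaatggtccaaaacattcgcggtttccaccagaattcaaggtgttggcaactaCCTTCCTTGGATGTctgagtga
SNORD11: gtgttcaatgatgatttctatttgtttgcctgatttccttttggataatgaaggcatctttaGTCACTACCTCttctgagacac
SNORD11B: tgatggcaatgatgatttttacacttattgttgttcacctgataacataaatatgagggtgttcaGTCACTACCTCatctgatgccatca
SNORD105: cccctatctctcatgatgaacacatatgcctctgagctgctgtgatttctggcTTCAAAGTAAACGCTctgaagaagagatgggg
SNORD105B: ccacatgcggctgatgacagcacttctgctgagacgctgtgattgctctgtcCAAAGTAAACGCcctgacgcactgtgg
SNORD67: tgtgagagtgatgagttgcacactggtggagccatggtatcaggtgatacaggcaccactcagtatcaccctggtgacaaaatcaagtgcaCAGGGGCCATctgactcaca

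The second set shows SNORD116 copies, chosen as the copy with the largest fall, the fall with the smallest adjusted p and the value nearest to 0. Here capitals mark the C box and the D box, since no run of 10 bases complementary to those RNAs was found beside a CTGA.
SNORD116-13: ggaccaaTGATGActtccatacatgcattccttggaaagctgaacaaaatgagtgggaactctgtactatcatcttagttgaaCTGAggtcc
SNORD116-25: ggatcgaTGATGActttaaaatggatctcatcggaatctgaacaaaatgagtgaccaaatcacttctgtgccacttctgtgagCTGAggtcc
SNORD116-16: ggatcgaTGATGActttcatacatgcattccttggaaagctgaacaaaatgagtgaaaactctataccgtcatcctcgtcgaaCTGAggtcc

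The members were between 64 and 237 bases long, with a median of 85.5. TGATGA within the first 25 bases together with CTGA within the last 25 was found in 53 of 68 members (77.9%), and in 1 of the 62 tested H/ACA box snoRNAs (1.6%), the other main class, which guides pseudouridylation. A complementary run of at least 10 bases beside a CTGA was found in 39 of 68 members (57.4%) and in 4 of 62 H/ACA box snoRNAs (6.5%). These matches describe the letters only. The sequences therefore carried the features of the class that the symbols name. On the reads, the 8 A549 and epithelial marker genes averaged between 43.8 and 220 CPM (counts scaled to a common library size), whereas PTPRC, PECAM1, COL1A1 and HBB together had 39 counts over all libraries and PECAM1 had none.

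Each library held between 1348386 and 1949886 counts, and every siAPEX1 library held fewer than any siCTRL library, so library size cannot be told apart from the labels. The APEX1 row had 47 to 64 counts per siCTRL library and 19470 to 27916 per siAPEX1 library. The transfected siRNA against APEX1 was itself a short RNA, and the protocol sequenced small RNAs. Whether reads of the siRNA were counted in this row was not tested. The row alone therefore does not show whether APEX1 was silenced, and higher or lower below follows the sample labels. The normalization factors (TMM, which set the typical gene to no change) were 1.10 to 1.13 in siCTRL and 0.876 to 0.921 in siAPEX1. A log2 fold change below is hence relative to the typical gene of 5368 tested, and not to the whole library. The summed CPM of the 8 A549 markers ranged from 1066 to 1266 in siCTRL and from 844 to 932 in siAPEX1, and its part in the results was not tested. Of these markers 6 were lower in siAPEX1 and 2 higher. In bulk RNA, fewer cells with a snoRNA and less of it per cell cannot be told apart.

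All 68 members passed the filter on low counts. They made up 16.1% of all counts, and few of them carried most of it: SNORD104 alone held 25.1% of the members' counts, the top 5 held 57.0% and the top 10 held 75.8%. The share of each library's counts on the members was 15.5%, 16.2%, 15.3% and 15.2% in siCTRL, and 16.1%, 16.5%, 17.4% and 17.1% in siAPEX1. With all counts as the denominator the groups overlapped, since the highest siCTRL library was above the lowest siAPEX1 library. The means were 15.6% ± 0.444 and 16.8% ± 0.589 (SD, n = 4 each), a difference of 1.24 percentage points. The overlap depended on the denominator. Of the counts outside APEX1, the members held 15.2% to 16.2% in siCTRL and 16.4% to 17.7% in siAPEX1, and of those outside rRNA and mitochondrial genes 24.9% to 26.3% and 26.4% to 28.2%, and in neither case did the groups overlap.

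Relative to the typical gene, 50 of the 68 members were higher in the siAPEX1 libraries, 7 were lower and 11 did not pass an adjusted p of 0.05 (edgeR quasi-likelihood test, Benjamini-Hochberg over all genes tested). Over all genes tested, 15.9% were higher and 15.8% lower. The median log2 fold change of the members was 0.49, a 1.41-fold rise, against a median of -0.0031 over all genes tested. The libraries of both groups did not overlap, in either direction, in 55 of the 68 members, and such separation was seen for 28.9% of all genes. None of the members reached a log2 change of 1, which 9.28% of all genes did in either direction together with the test. At 0.75, the cutoff in the methods of the study, which was applied after the values were seen, 13 members were higher and 0 lower, against 7.53% of all genes higher. Abundant genes were higher more often: among the 365 genes of at least 100 CPM, members included, 51.2% rose, and 42 of the 53 members at that level did.

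The scaling decides how many members count as higher. When libraries were scaled by their totals alone, 29 members were higher and 14 lower, against 6.45% and 35.7% of all genes, and the share of higher members among those called went from 87.7% to 67.4%. Under that scaling the median of all genes moved to -0.34 and that of the members to 0.16, so the distance between the members and all genes was 0.50, as it was with TMM factors. The plot of medians by setting shows the same distances side by side.

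**Figure D1:**
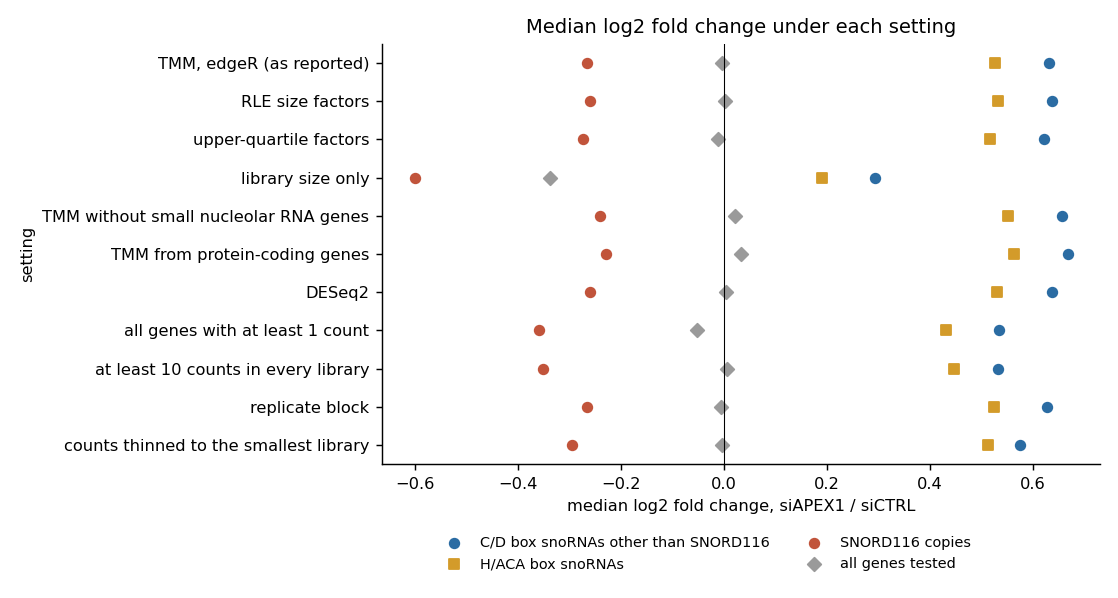
Median log2 fold change (x axis) of the C/D box snoRNAs other than SNORD116, the H/ACA box snoRNAs, the SNORD116 copies and all genes tested (points) under each setting (y axis). Scaling by library totals moves all 4 medians to the left, whereas their order is kept.

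The members split by origin. All 7 that fell were SNORD116 copies, and no other member fell. Of the 55 members outside SNORD116, 50 rose with a median log2 fold change of 0.63, whereas of the 13 SNORD116 copies 0 rose, 7 fell and 6 did not pass, with a median of -0.27. The plot of all members shows the 2 sets apart except for SNORD105, which lies among the SNORD116 copies.

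**Figure D2:**
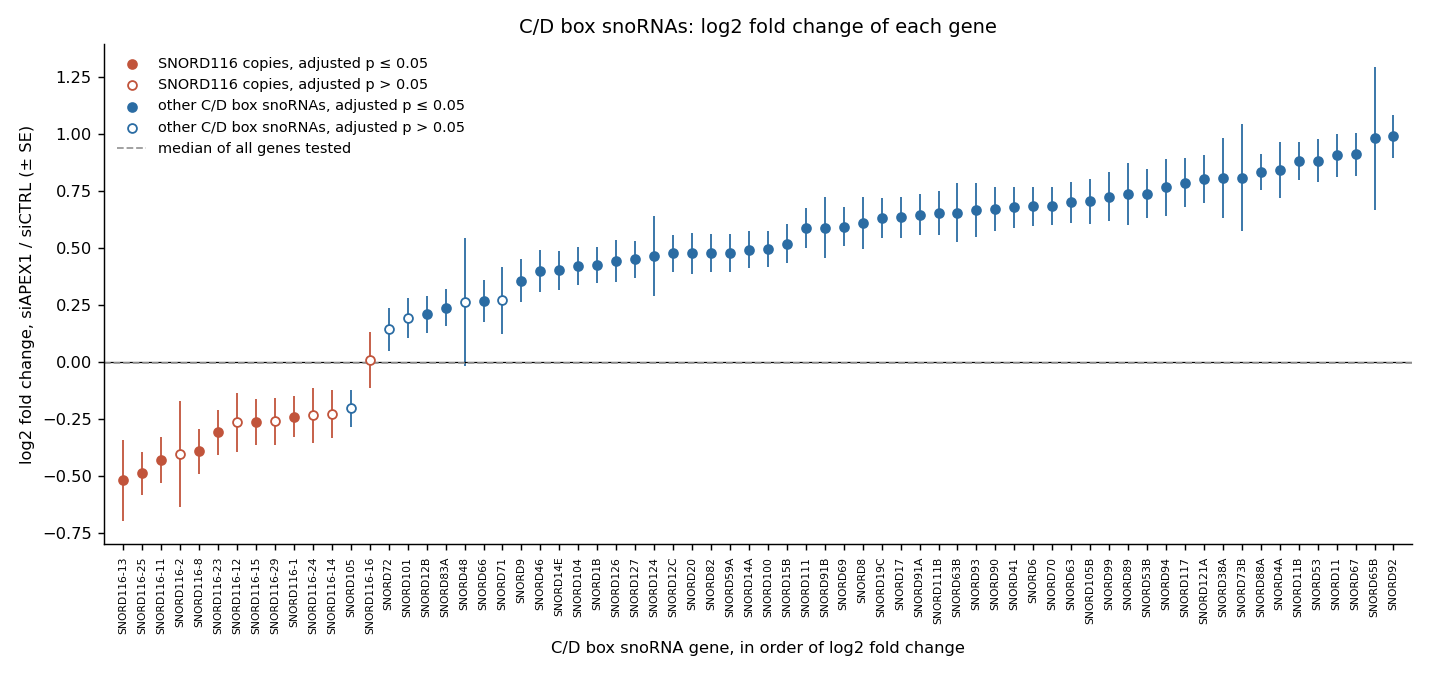
Log2 fold change of the 68 members with its standard error (y axis), in order of value (x axis). Filled points passed the adjusted p of 0.05. The values run from -0.52 for SNORD116-13 to 0.99 for SNORD92.

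The largest rise was that of SNORD92, encoded in an intron of WDR43 at chr2:28913664-28913748 (GRCh38, + strand), whose element pairs with bases 3861 to 3871 of 28S rRNA and faces base 3864. Its CPM was 240.0, 293, 253 and 266 in siCTRL, and 506, 617, 503 and 466 in siAPEX1. Every siAPEX1 library was above every siCTRL library, with a log2 fold change of 0.99 ± 0.10 (SE) and an adjusted p of 3.15e-11. WDR43, a factor of the small ribosomal subunit processome, holds 2 more members, SNORD53 with 0.88 and SNORD53B with 0.74.

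SNORD67, which lies in an intron of CKAP5 and guides methylation of U6, had CPM of 202, 219, 241 and 233 in siCTRL, and 440.5, 489, 364 and 391 in siAPEX1. The groups did not overlap, and the log2 fold change was 0.91 ± 0.10 (adjusted p = 4.05e-10). Its complement ran over bases 56 to 65 of U6 and faced base 60. Of the 5 listed U6 guides, SNORD8 (0.61), SNORD9 (0.36) and SNORD94 (0.77) also rose, and SNORD7 was under the minimum. The search placed SNORD8 on base 53 of U6, found no run for SNORD9, and gave SNORD94 a match in 28S rRNA instead.

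NOP58, which encodes a core protein of the C/D ribonucleoprotein, is itself the host of SNORD11, SNORD11B and SNORD70. SNORD11 had CPM of 631, 794, 648 and 579 in siCTRL, and 1142, 1282, 1349 and 1197 in siAPEX1, a log2 fold change of 0.91 ± 0.09 (adjusted p = 1.84e-10). SNORD11B rose by 0.88 ± 0.08 and SNORD70 by 0.68 ± 0.08, and the libraries were separate for all 3. As the sequences above show, SNORD11 and SNORD11B hold the same 11 bases beside the D box, which face base 509 of 18S rRNA. The ratio of SNORD11 to SNORD11B differed by 0.03 (log2) between the groups, with an exact permutation p of 0.743 (two-sided) and an adjusted p of 0.914 over 16 pairs.

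The remaining members among the 8 largest rises were SNORD4A (0.84, host RPL23A), SNORD88A (0.83, host C19orf48P) and SNORD65B (0.98 ± 0.31). SNORD88A, whose CPM was 3061, 3214, 2914 and 3241 in siCTRL and 5381, 5475, 5628 and 5674 in siAPEX1, is the only one of them among the 10 most abundant members. SNORD65B, the member closest to the minimum, had CPM of 3.44 to 6.34 in siCTRL and 6.36 to 13.7 in siAPEX1, so that its groups nearly touched.

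Among the abundant members the rises were smaller. SNORD104, held by SNHG25 at chr17:64146083-64146152 (GRCh38, + strand), pairs over 14 bases with 28S rRNA and faces base 1340. Its CPM was 34710, 39190, 34330 and 31480 in siCTRL, and 40370, 45810, 53240 and 47570 in siAPEX1. The groups did not overlap, though the lowest siAPEX1 library was close to the highest siCTRL library, and the log2 fold change was 0.42 ± 0.08 (adjusted p = 0.000131). Its share of the members' counts was 25.2% ± 1.38 in siCTRL and 24.7% ± 1.53 in siAPEX1 (SD, n = 4 each), a difference within that spread.

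The other members of the 10 most abundant were SNORD100 (0.50), SNORD12C (0.48), SNORD59A (0.48), SNORD20 (0.48), SNORD1B (0.42), SNORD14E (0.40), SNORD83A (0.24) and SNORD12B (0.21). All 8 passed the test. SNORD83A and SNORD12B had the smallest rises: SNORD83A overlapped between the groups, and SNORD12B ran from 12770 to 15010 CPM in siCTRL and from 15080 to 17260 in siAPEX1. When scaled by library totals these values became -0.10 and -0.13.

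U14 is needed for cleavage of the precursor of 18S rRNA besides methylation. Its copies SNORD14A, in RPS13, and SNORD14E, in HSPA8, both faced base 462 of 18S rRNA. SNORD14A had CPM of 2007, 2264, 2041 and 2268 in siCTRL, and 3048, 2923, 3104 and 2990 in siAPEX1 (log2 fold change 0.49 ± 0.08, adjusted p = 6.22e-06). SNORD14E had 6243, 6423, 6298 and 7514 in siCTRL, and 9221, 7521, 9335 and 8893 in siAPEX1 (0.40 ± 0.09, adjusted p = 0.000279). For SNORD14E the highest siCTRL library and the lowest siAPEX1 library were nearly equal. The copies SNORD14B, SNORD14C and SNORD14D were listed at 0 in every library.

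**Figure D3:**
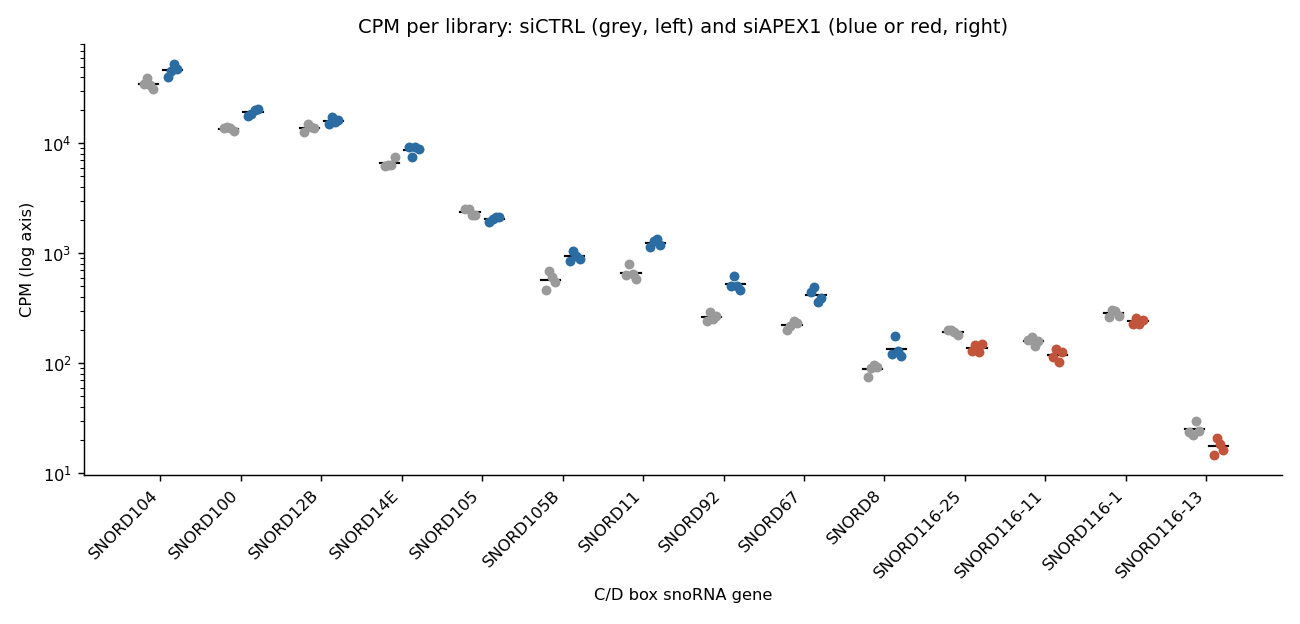
CPM (y axis, log scale) of 14 members (x axis) in each library, siCTRL in grey on the left and siAPEX1 in blue, or in red for SNORD116 copies, on the right, with a line at the mean. SNORD92, SNORD67 and SNORD11 lie apart between the groups in the upward direction, and SNORD105 and SNORD116-25 in the downward direction.

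SNORD105 and SNORD105B, both held by PPAN on chromosome 19, differed in direction in their values. SNORD105 had CPM of 2541, 2503, 2234 and 2215 in siCTRL, and 1935, 2035, 2148 and 2119 in siAPEX1. Each siAPEX1 library was below each siCTRL library, but the log2 fold change of -0.20 ± 0.08 did not pass (adjusted p = 0.0554). SNORD105B had 460.3, 684, 610 and 544 in siCTRL, and 854.5, 1059, 945 and 886 in siAPEX1, and it rose by 0.70 ± 0.10 (adjusted p = 2.53e-07). Their elements overlap in 18S rRNA, at bases 795 to 809 for SNORD105 and 796 to 807 for SNORD105B, and both face base 799. The ratio of SNORD105B to SNORD105, which needs no scaling between libraries, was -2.06 ± 0.28 (log2, SD, n = 4) in siCTRL and -1.14 ± 0.14 in siAPEX1. These ratios did not overlap (difference 0.92, exact permutation p = 0.0286 two-sided, the smallest that 4 against 4 libraries allow), and the adjusted p over 16 pairs of members from the same host was 0.152. Ratios of 2 other pairs did not overlap either, with the same p values: SNORD100 to SNORD101 in RPS12 by 0.31 and SNORD12C to SNORD12B in ZFAS1 by 0.27. None of the 16 pairs passed after adjustment. With only 3 pairs at the smallest possible p, none could have passed, so the adjusted values do not decide these differences.

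The members faced 6 rRNA bases in pairs. Apart from the pair at base 799 of 18S rRNA, the members of a pair had similar values. At base 3941 of 28S rRNA, SNORD111 and SNORD111B had 0.59 and 0.65. At base 4568, SNORD63 and SNORD63B had 0.70 and 0.65, and at base 4615, SNORD91B and SNORD91A had 0.59 and 0.65. Positions count from the first base of the mature RNA of 1 rRNA gene copy, and other copies were not searched.

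Members outside SNORD116 rose in every class of target match and of host. The target classes rest on the base matches alone. Of 17 members matched to 18S rRNA, 16 rose with a median of 0.50. Of 20 matched to 28S rRNA, the listed U6 guide SNORD94 among them, 19 rose with a median of 0.65. The 2 matched to U6 both rose (median 0.76). Of 16 other members outside SNORD116 with no run found, the U6 guide SNORD9 among them, 13 rose with a median of 0.53. By host, 8 of 10 members in ribosomal protein genes rose (median 0.49), as did 34 of 36 in other protein-coding genes (0.65) and 7 of 8 in non-coding genes other than SNHG14 (0.45). These are counts beside one another, and their differences were not tested.

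With TMM factors, the SNORD116 copies that passed the test fell by smaller steps than most rises of other members. This order of sizes depends on the scaling. Scaled by library totals, the median was -0.60 for the copies and 0.29 for the other members. Of 33 rows named SNORD116, some of them on other chromosomes than the array, 13 were members, 6 had fewer counts than the minimum and 14 had none. The 50 rows named SNORD115, nearly all in the neighbouring cluster, had at most 6 counts each over all libraries, and 40 of them had none. SNORD116-25, at chr15:25097663-25097754 (GRCh38, + strand), had CPM of 199.7, 199.4, 194 and 182 in siCTRL, and 129, 146, 126 and 151 in siAPEX1. Its groups were well apart, and the log2 difference was -0.49 ± 0.10 (adjusted p = 8.27e-05). SNORD116-13 had the largest fall, from 23.6, 22.3, 29.9 and 24.4 to 14.5, 20.7, 18.3 and 16.3 (-0.52 ± 0.18, adjusted p = 0.0226).

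SNORD116-11 fell by 0.43 on the log2 scale, SNORD116-8 by 0.39, SNORD116-23 by 0.31, SNORD116-15 by 0.26 and SNORD116-1 by 0.24. SNORD116-16 was at 0.01 and its libraries overlapped. The number that fell was 4 without siCTRL replicate 3 or without siAPEX1 replicate 1, 3 without siAPEX1 replicate 3 or 4, 4 with DESeq2, 11 when at least 10 counts were required in every library and 13 when scaled by library totals. Copies share runs of up to 73 bases, so reads could be split among or lost between them, and the value of a single copy is uncertain. SNHG14, the host, had only 6 to 23 counts per library and was at -0.59 on the log2 scale (adjusted p = 0.134).

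As a share of the members' counts, which needs no scaling between libraries, the SNORD116 copies held 1.26%, 1.31%, 1.35% and 1.30% in siCTRL, and 0.786%, 0.872%, 0.689% and 0.754% in siAPEX1. Every siAPEX1 library was lower. The means were 1.31% ± 0.0381 and 0.775% ± 0.0760 (SD, n = 4 each). Nearly all of the members' counts lie on the other members, of which 50 of 55 rose. Such a share also drops when those rise, so it does not by itself show a fall of the copies.

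**Figure D4:**
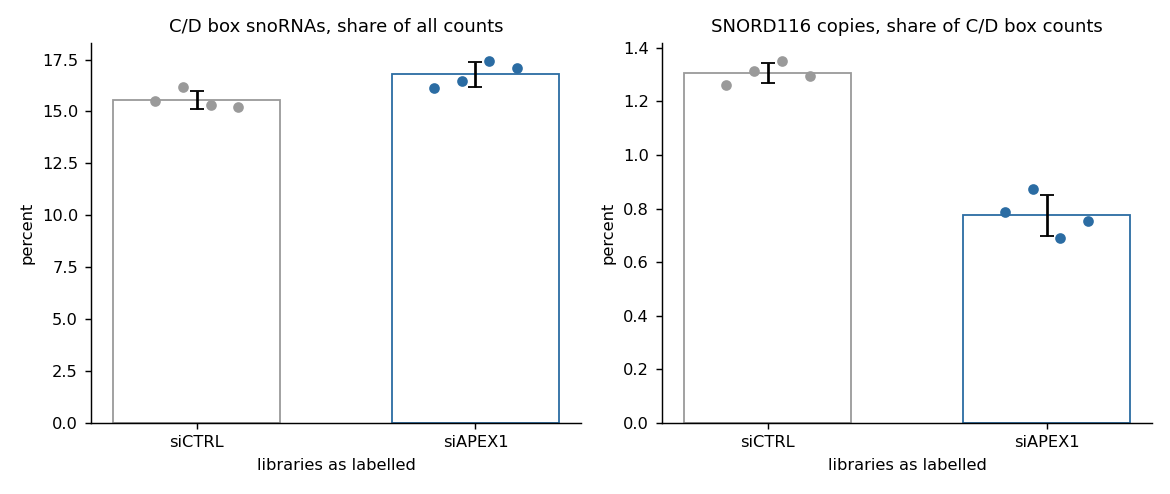
Left, percent of each library's counts on the 68 members (y axis) by label (x axis); right, percent of the members' counts on the SNORD116 copies. Bars show means, error bars SD and points single libraries. The members' share of all counts overlaps between the groups, which it does not when APEX1 or the rRNA and mitochondrial genes are left out, and the SNORD116 share of the members' counts does not overlap.

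The members had higher log2 fold changes than the genes that hold them. Of the members outside SNHG14, 47 had a tested host (34 hosts in all), and all 47 had a higher log2 fold change than their host, by a median of 0.61. The hosts had a median of -0.03, with 3 of 34 higher and 8 lower, beside 15.9% and 15.8% of all genes tested. In 9 cases a member rose while its host fell. The widest gap was at SNHG16, whose CPM was 35.5 to 44.8 in siCTRL and 6.44 to 15.5 in siAPEX1 (-1.75 on the log2 scale, adjusted p = 9.04e-10), while SNORD1B in its intron rose by 0.42. NCL, which encodes nucleolin, fell by 0.65 on the log2 scale (adjusted p = 4.32e-06), while its snoRNAs SNORD20 and SNORD82 each rose by 0.48. SNORD82 is free of NCL exons in GENCODE 44, whereas an NCL exon covers the whole of SNORD20. RPS3 fell by 0.79 on that scale, and its SNORD15B rose by 0.52. Across these 47 members, the values of member and host had a Pearson r of 0.41 and a Spearman rho of 0.47. Members of 1 host share its value, and all values share the same libraries. A small-RNA library holds fragments of a host mRNA rather than its whole length.

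**Figure D5:**
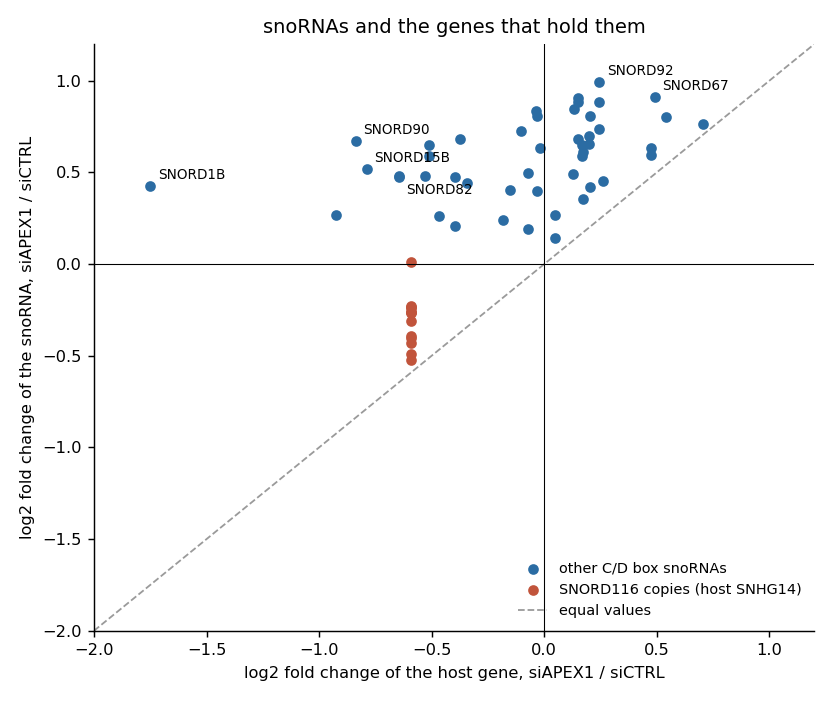
Log2 fold change of each member (y axis) against that of its host gene (x axis). The dashed line marks equal values. All members plotted, the SNORD116 copies included, lie above it, and SNORD1B lies farthest to the left.

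Of 31 listed genes for the core, assembly, maturation and trafficking of the C/D ribonucleoprotein, 24 were tested, 2 rose and 3 fell, with a median of -0.02. These shares are below the 15.9% higher and 15.8% lower among all genes tested. None of the 4 core genes passed: FBL, the methyltransferase fibrillarin, was at -0.20 ± 0.11, NOP56 at 0.16 ± 0.19, NOP58 at 0.15 ± 0.21 and SNU13, which binds the folded boxes, at 0.06 ± 0.22. The genes that rose were HSP90AA1, an HSP90 chaperone (0.58, adjusted p = 3.29e-06), and XRN1, a 5′ to 3′ exonuclease (0.63, adjusted p = 0.0243). Those that fell were PIH1D1, a subunit of the R2TP assembly complex (-1.09, adjusted p = 0.00795), MTREX, the nuclear exosome helicase (-0.56, adjusted p = 0.00338), and NCL. Without siCTRL replicate 1 or 2, or without siAPEX1 replicate 2, 1 gene rose instead of 2.

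The other classes of guide RNA rose as well. Of 62 H/ACA box snoRNAs tested, 56 rose and 0 fell (median 0.53), and all 16 small Cajal body RNAs, which guide modification of spliceosomal RNAs, rose (median 0.58). Protein-coding genes had a median of -0.03.

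An exon of another gene on the same strand lies over 20 of the 68 members in GENCODE 44, over 9 of 35 rows below the minimum and over 96 of the 155 rows at 0 (61.9%). The counter used by the authors drops reads that fall on exons of several genes, and a listed 0 therefore does not show that the snoRNA is missing from the cells. The exons here are those of GENCODE 44, and the authors' annotation may differ. Cover did not always go with low counts: SNORD20, wholly under an NCL exon, had 80199 counts, and SNORD12B, with 3.3% of its bases free, had 197696. A wholly covered member would have no counts with that counter. At SNORD20 the GENCODE 44 exons therefore do not describe the annotation that the authors counted with. Without the 20 covered members, 43 of 48 rose and 1 fell, with a median of 0.61. Most of the members left out this way were SNORD116 copies. Of the 8 covered members outside SNORD116, 7 rose and 0 fell, with a median of 0.63.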

How the data were processed

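The deposited values were raw counts per gene, which the authors made from adapter-trimmed single-end reads of SMARTer smRNA-Seq libraries with STAR 2.5.3a (GeneCounts) on GRCh38 with an Ensembl annotation. The submitters' processing notes name STAR, CASAVA and DESeq2. The annotation release and the strand column are not given in the sources used here. Identifiers were matched to GENCODE 44, which held 57532 of 58302 rows. Library totals ranged from 1348386 to 1949886 counts, which limits precision for members with few counts. Counts were filtered with filterByExpr (minimum count 10, total 15), scaled by TMM and tested with edgeR 4.0.16 in R 4.3.3 on all 8 libraries with group as the only term. The quasi-likelihood p-values were adjusted by Benjamini-Hochberg over 5368 genes, and the adjusted p had to be at most 0.05. The common biological coefficient of variation was 0.0832. The script was tested on simulated data. CPM values use TMM-scaled library sizes. Ratios of members from one host were compared by exact permutation over libraries in scipy 1.17.1, and figures were drawn with matplotlib 3.10.9. Alternatives were other scalings, DESeq2 1.42.0, other filters, thinned counts, a replicate block and leaving out each library.

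The members, gene lists and tests were chosen with earlier results of these data known. The genes named are the 8 largest rises and the falls among members past the test, the 10 most abundant members, the U14 copies, the U6 guides, the rows next to the minimum, members of the hosts with most members, the core ribonucleoprotein genes, other listed genes past the test and the hosts of those members. SNORD105, the pairs sharing a host or a target base and SNORD15B were added after their values were seen. The study calls its replicates biological, and neither it nor the labels say whether each library came from a separate culture, so p-values measure the spread between these libraries, which may in part be technical. Counts of no pair of replicates were within sampling noise of each other (chi-square per degree of freedom 1.67 to 2.97).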

Additional observations from a re-analysis of the deposited data

Results flagged for a closer look

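In 4 of 78 groups of 4 libraries, 1 library lay far from the other 3 by Dixon's test at the 95% level, and chance alone gives about 1 in 20 groups. SNORD116-24 had 115 CPM in siAPEX1 replicate 2, against 73.3 to 79.7 in the other siAPEX1 libraries. In the same library SNORD83A had 4731 CPM, against 5132 to 5182 in the others. SNORD14E had 7514 CPM in siCTRL replicate 4, against 6243 to 6423. SNORD48, a member of low level, had 9.95 CPM in siCTRL replicate 2, against 5.90 to 6.50.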

How the results depend on the processing

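Under 18 alternatives the members other than SNORD116 kept a positive median, between 0.29 and 0.69, and the SNORD116 copies a negative one, between -0.60 and -0.22. Scaling by library totals gave 29 higher and 14 lower members, a median of 0.16, and 1 higher and 10 lower ribonucleoprotein genes. DESeq2 gave 4 lower members and 1 higher ribonucleoprotein gene. With all genes of at least 1 count the median was 0.40 and 1 ribonucleoprotein gene was higher, and with at least 10 counts in every library 12 members were lower and the median was 0.41. Members with no exon of another gene over them, a set without most SNORD116 copies, had 1 lower and a median of 0.61. Without SNORD116, chosen after seeing the data, 0 were lower and the median was 0.63. Past the fold threshold of 1, 2 members were higher with TMM factors from protein-coding genes or without small nucleolar RNA genes, and 13 passed 0.75, also added later. The share of counts differed by 1.89 points outside rRNA and mitochondrial genes. When 1 library at a time was left out, 45 to 51 members were higher, 3 to 8 lower and 0 to 3 past the fold threshold, with medians of 0.49 to 0.53, 1 to 2 ribonucleoprotein genes higher, and a share difference of 1.02 to 1.45 points. SNORD116-16 was -0.33 with library totals, -0.0865 with all genes, -0.0785 with the strict filter, -0.0466 with thinned counts, and ranged from -0.0371 to 0.0801 without 1 library, turning negative without siCTRL replicate 3 (-0.0023), siCTRL replicate 4 or siAPEX1 replicate 3 (-0.0042). With library totals SNORD12B was -0.13, SNORD83A -0.10 and SNORD48 -0.071. SNORD105 passed the test as lower with upper-quartile factors, library totals, both other filters and without siCTRL replicate 4. Of 680 values of named members under the alternatives, 602 kept their direction and their side of the threshold, 53 lost the call, 15 gained it and 10 changed sign, as given above. Same-numbered libraries did not deviate together (correlations -0.037 to -0.003), so the numbers do not pair them, and with a replicate block 50 members were higher and 7 lower. At these depths a log2 change in the rarest members has a standard error of up to 0.31.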
